A study of Mus musculus with 8 samples.

Results

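The genes described here govern passage from G1 into S phase and were followed across 8 RNA-seq libraries of mouse leukaemia cells. They were the D-type cyclins Ccnd1, Ccnd2 and Ccnd3, the kinases Cdk4 and Cdk6, the inhibitors Cdkn1a, Cdkn1b, Cdkn2c and Cdkn2d, and Rb1. They were taken by symbol, 10 of the 20484 genes in the expression table, and all 10 passed the filter on low values (at least 1 RPKM in at least 2 libraries), which kept 9975 genes. The cells, called RN2, are an engineered C57BL/6J acute myeloid leukaemia line with MLL-AF9 and NRAS, the latter labelled G112D, and every group carried both. Each of the 4 groups had 2 libraries labelled biological replicates: the solvent DMSO, and the compounds RVX-208, OTX-015 and BBC1115, in a study that screened a DNA-encoded library for ligands of BET proteins. The sources used here give neither dose nor time, so the compounds are not known to be matched for either. All values come from 1 line, and the p-values rest on the spread between the 2 libraries of each group, pooled over the groups.

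BET proteins are chromatin readers that bind acetylated histones through a pair of bromodomains. OTX-015 (birabresib) binds the bromodomains of the whole BET family, and RVX-208 (apabetalone) prefers the second bromodomain. D-type cyclins bind and activate CDK4 and CDK6, and the active kinases phosphorylate the retinoblastoma protein, which frees E2F transcription factors to switch on S phase genes. INK4 proteins bind the kinases themselves, whereas CIP and KIP proteins bind assembled cyclin and kinase complexes. In leukaemias with MLL rearrangements, CDK6 is a known requirement for growth and for the block in myeloid differentiation.

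Promoter sequences are shown for Cdk4 and Cdk6, the kinases among the 10 genes, which fell in the results below. That of Cdkn1a, the inhibitor among the 10 genes that rose most, is also shown. RefSeq (GRCm38.p6) promoters were matched for 7 of the 10 genes, as 10 windows of 300 bases that run from 250 before to 50 after a transcription start. Ccnd1, Ccnd2 and Rb1 were not among them. The 250 bases before the start are printed 5′ to 3′ on the gene's strand, with capitals marking CACGTG, the E-box letters bound by MYC and related factors. The Cdk4 window lay at chr10:127063285-127063534 on the plus strand, that of Cdk6 at chr5:3343643-3343892 on the plus strand, and that of the downstream Cdkn1a start at chr17:29093519-29093768 on the plus strand.
Cdk4: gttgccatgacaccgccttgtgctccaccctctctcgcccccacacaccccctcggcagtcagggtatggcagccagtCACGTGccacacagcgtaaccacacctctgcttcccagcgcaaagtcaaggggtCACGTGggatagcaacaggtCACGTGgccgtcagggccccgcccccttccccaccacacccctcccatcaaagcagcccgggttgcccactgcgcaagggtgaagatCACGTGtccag
Cdk6: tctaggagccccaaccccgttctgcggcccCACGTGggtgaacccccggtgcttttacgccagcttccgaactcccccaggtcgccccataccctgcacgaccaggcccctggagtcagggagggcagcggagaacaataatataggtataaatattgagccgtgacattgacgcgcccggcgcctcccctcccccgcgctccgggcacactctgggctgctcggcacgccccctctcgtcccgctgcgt
Cdkn1a: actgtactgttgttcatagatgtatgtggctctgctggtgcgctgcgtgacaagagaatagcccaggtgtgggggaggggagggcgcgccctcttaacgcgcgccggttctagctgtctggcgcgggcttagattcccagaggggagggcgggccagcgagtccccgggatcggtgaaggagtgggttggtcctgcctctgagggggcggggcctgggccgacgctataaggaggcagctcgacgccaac
The Cdk4 promoter held 4 E-boxes, whose first bases lay 172, 118, 98 and 11 bases upstream of the start. Of 32851 mouse promoters of this length, 7.15% held at least 1 E-box and 8 promoters, or 0.0244%, held 4 or more. Cdk6 had 1 E-box, 220 bases upstream, and Cdkn2c had 1 in 1 of its 2 windows, 35 bases downstream of that start. The other motifs were read on both strands. The GC box GGGCGG stood in 7 of the 10 windows and in 35.7% of all promoters, CCAAT in 4 of 10 and 37.4%, and TATAAA in 1 of 10 (Cdk6) and 13.6%. The E2F letters TTTCCCGC or TTTCGCGC or TTTGCCGC or TTTGGCGC were found in none of the 10 windows and in 2.26% of all promoters. A match describes letters and not occupancy, and no binding data were used.

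The libraries were estimated to hold 10800000 to 17900000 reads, from the RPKM of genes with 1 read, and the member value with the fewest reads behind it, Ccnd1 in BBC1115 replicate 1, corresponds to about 247. That figure used the joined exons of all annotated transcripts, so it can be too high where shorter transcripts were counted. All 10 markers of the myeloid leukaemia line reached 1 RPKM. Their summed level, most of it Elane, was 2350 to 2550 RPKM with DMSO, 2170 to 2180 with RVX-208, 1520 to 1710 with OTX-015 and 1440 to 1650 with BBC1115. The markers did not all move with that sum: Hoxa9 stood at 77.2 and 69.2 RPKM with DMSO, 98.0 and 91.1 with OTX-015 and 88.3 and 76.8 with BBC1115. Meis1 stood at 10.5 and 10.6, at 16.7 and 15.6 and at 12.4 and 12.7. Cebpa stood at 40.7 and 38.4 with DMSO, 26.6 and 23.0 with OTX-015 and 37.4 and 35.2 with BBC1115. Myb, Spi1, Kit and Itgam fell by a larger share than the sum, and so did Ptprc with BBC1115. Myb went from 273 and 275 RPKM with DMSO to 96.6 and 88.7 with OTX-015 and 23.0 and 21.9 with BBC1115. Spi1 went from 158 and 148 to 58.8 and 50.8 and to 16.4 and 14.1, and Kit from 22.7 and 25.6 to 7.05 and 6.19 and to 6.01 and 6.09. Itgam went from 69.5 and 82.5 to 43.7 and 40.8 and to 35.8 and 39.4. Ptprc stood at 50.9 and 58.5 with DMSO, 50.6 and 47.5 with OTX-015 and 23.5 and 25.2 with BBC1115. No marker of T and NK cells, B cells or erythroid cells and megakaryocytes reached 1 RPKM in any library, and of the stromal list only Pecam1 did, at 50.4 to 60.3 RPKM with DMSO and RVX-208, 6.67 to 7.30 with OTX-015 and 2.03 to 2.10 with BBC1115. The part of these marker shifts in the results below was not tested. In bulk RNA, fewer cells of a kind and less RNA per cell cannot be told apart.

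Levels are given as RPKM, reads scaled to transcript length and library size, which allows genes to be compared per length. In DMSO the order of mean levels was Cdk4 (301 RPKM), Ccnd3 (100.5), Cdk6 (76.7), Cdkn1a (66.4), Ccnd1 (37.3), Cdkn2d (30.9), Ccnd2 (22.9), Cdkn2c (19.9), Rb1 (11.4) and Cdkn1b (11.1). Cdk6 and Cdkn1a, and likewise Rb1 and Cdkn1b, had overlapping DMSO libraries, so their order was not resolved. In BBC1115 the order opened with Cdkn1a (251 RPKM), followed by Ccnd3 (108.4) and Cdk4 (108.1), whose libraries overlapped, and it closed with Cdk6 (4.72) and Ccnd1 (4.14), whose libraries did not.

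Against DMSO, 5 of the 10 genes were higher and 3 lower in OTX-015, and 3 were higher and 4 lower in BBC1115, at an adjusted p under 0.05 (limma on log2(RPKM + 1), Benjamini-Hochberg over 9975 genes). Among all genes tested, 24.2% were called higher and 40.0% lower in OTX-015, and 26.4% higher and 49.3% lower in BBC1115, so calls in either direction were common. The median log2 fold change of the 10 members was 0.24 with OTX-015 and 0.0 with BBC1115, where that of all genes was -0.13 and -0.25. The member median became 0.41 and 0.25 with upper-quartile scaling, and 0.12 in OTX-015 without OTX-015 replicate 1. In RVX-208 limma called 0 of the 10 genes, and 1 of 10 had an unadjusted p under 0.05, as did 18.2% of all genes. Across all genes 0.0902% were called higher and 0.0802% lower in RVX-208. The 3 comparisons share the same DMSO libraries. Upper-quartile scaling moved the median of all genes to 0.04 with OTX-015 and -0.02 with BBC1115. With that scaling 53.7% of called genes were higher in OTX-015 and 48.6% with BBC1115, against 37.7% and 34.8% as deposited, and the smaller member changes below are read with that shift in view.

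**Figure D1:**
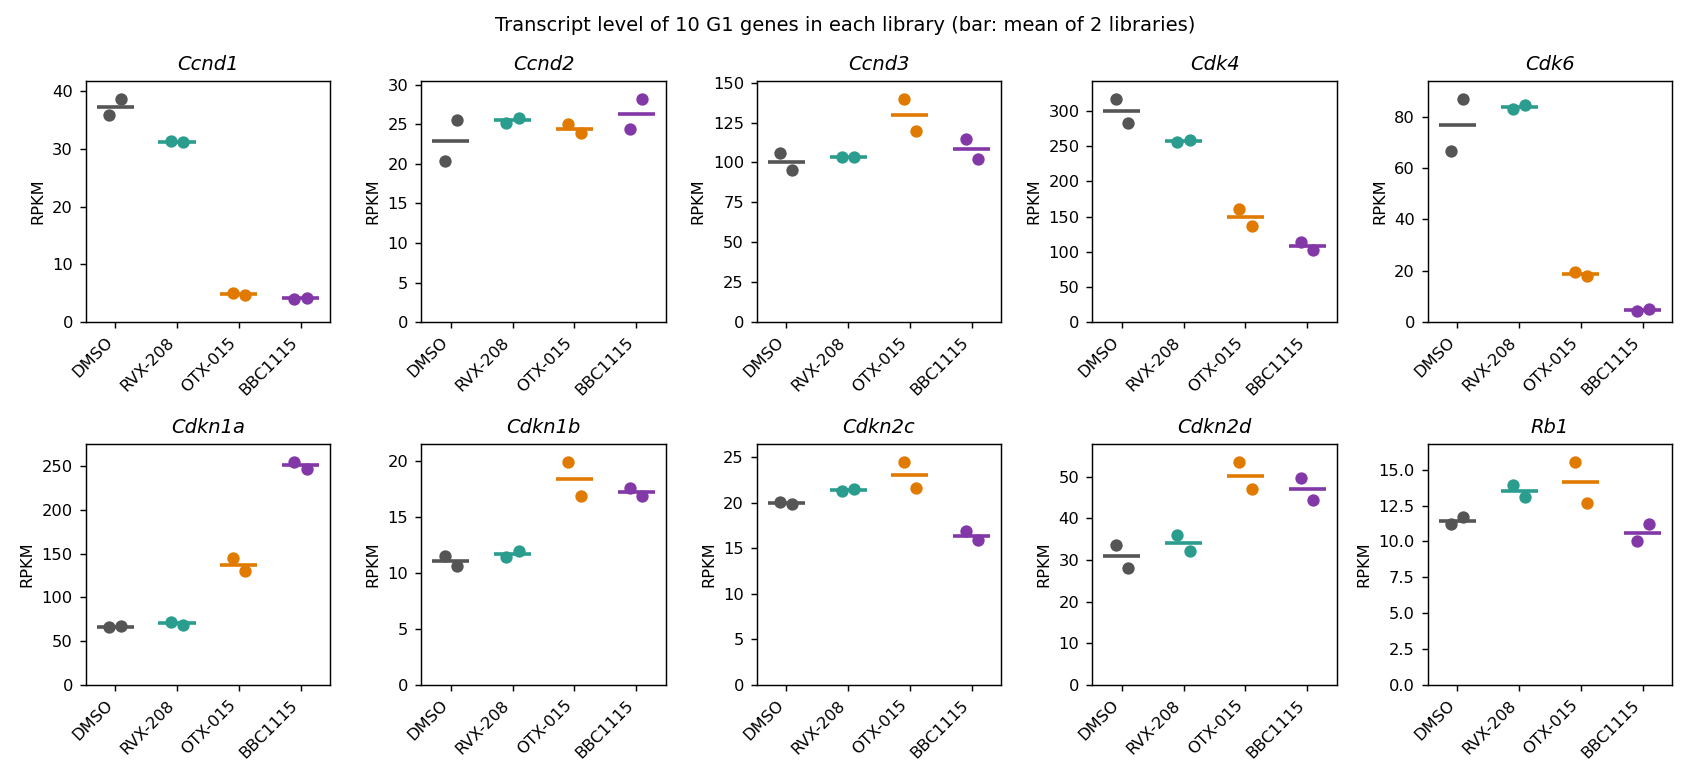
RPKM (y axes, linear and starting at 0) of the 10 genes in each library, by treatment (x axes), with points for the 2 libraries of a group and bars for their mean. Ccnd1, Cdk4 and Cdk6 are low and Cdkn1a, Cdkn1b and Cdkn2d are high in OTX-015 and BBC1115, with no overlap with DMSO.

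**Figure D2:**
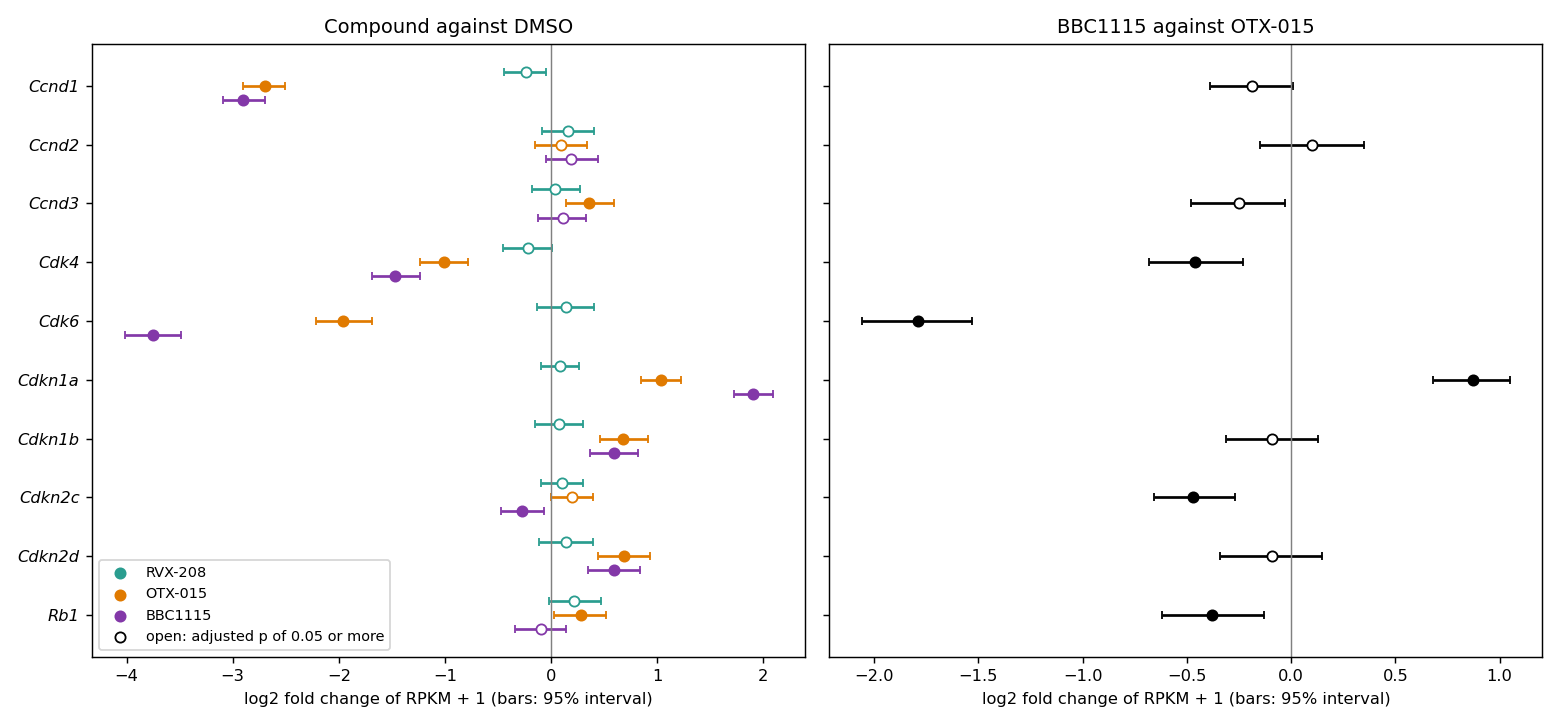
Log2 fold change of RPKM + 1 for each gene with its 95% interval, for each compound against DMSO (left, colours) and for BBC1115 against OTX-015 (right). Filled points had an adjusted p under 0.05; Cdk6 lies farthest below 0 and Cdkn1a farthest above 0 with BBC1115.

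The D-type cyclins split, with Ccnd1 falling steeply in both OTX-015 and BBC1115 while Ccnd2 was not called in either. Ccnd1 encodes cyclin D1 (chromosome 7, 144929931 to 144939925, minus strand, GRCm38). It stood at 35.9 and 38.7 RPKM with DMSO, 31.5 and 31.2 with RVX-208, 4.999 and 4.74 with OTX-015 and 4.04 and 4.24 with BBC1115. Every OTX-015 and BBC1115 library lay below every DMSO and RVX-208 library. The mean was 7.66-fold lower in OTX-015 than in DMSO (log2 fold change -2.7, SE 0.0889, adjusted p = 3.6e-09) and 9.0-fold lower in BBC1115 (log2 fold change -2.9, SE 0.0889, adjusted p = 5.77e-10). The BBC1115 libraries were both below the OTX-015 libraries, yet the difference was not called (log2 fold change -0.19, 95% interval -0.39 to 0.01, adjusted p = 0.104). In RVX-208 Ccnd1 was 1.19-fold lower than in DMSO without overlap, and it carried the lowest p of the 10 genes in that comparison (unadjusted p = 0.0196 and adjusted p = 0.213 by limma). Ccnd1 exons overlap those of LTO1, listed in the table as Oraov1, over 1100 nucleotides or 23.4% of the Ccnd1 exons on the opposite strand. Oraov1 was higher where Ccnd1 was lower, from a mean of 7.90 RPKM with DMSO to 11.4 with OTX-015 and 12.98 with BBC1115. The sources used here do not say whether the counting used strand, and the part of such shared bases in any member's value was not tested.

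Ccnd2 encodes cyclin D2 (chromosome 6, 127125162 to 127152193, minus strand). It stood at 20.4 and 25.5 RPKM with DMSO, 25.2 and 25.8 with RVX-208, 25.0 and 23.9 with OTX-015 and 24.4 and 28.2 with BBC1115. The DMSO libraries alone spanned most of this range, and all 3 treated groups overlapped them. The log2 fold change was 0.09 with OTX-015 (95% interval -0.15 to 0.34, adjusted p = 0.474) and 0.19 with BBC1115 (95% interval -0.05 to 0.44, adjusted p = 0.137). Without DMSO replicate 2, the higher of the DMSO libraries, Ccnd2 was called higher in BBC1115 (adjusted p = 0.0124), as it was with upper-quartile scaling (0.00766) and quantile normalization (0.00729).

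Ccnd3, which encodes cyclin D3 (chromosome 17, 47505051 to 47599691, plus strand), was the most abundant D-type cyclin transcript in every library. It stood at 106 and 95.1 RPKM with DMSO, 103 and 104 with RVX-208, 139.9 and 119.5 with OTX-015 and 115 and 102 with BBC1115. OTX-015 lay above DMSO without overlap, and BBC1115 overlapped DMSO. The rise in OTX-015 was 1.29-fold (log2 fold change 0.36, SE 0.101, adjusted p = 0.00886), but it was not called without OTX-015 replicate 1 (log2 fold change 0.25, adjusted p = 0.0773). BBC1115 was not called (log2 fold change 0.11, 95% interval -0.12 to 0.33, adjusted p = 0.349), whereas upper-quartile scaling, rescaling to TPM and quantile normalization each called it higher (adjusted p = 0.0018, 0.0346 and 0.000811). BBC1115 lay below OTX-015 without overlap but was not called (log2 fold change -0.25, 95% interval -0.48 to -0.03, adjusted p = 0.0623), and 6 of 17 alternatives called it lower. Ccnd3 shares 361 exon nucleotides, 4.11% of its exons, with Bysl on the opposite strand. Bysl averaged 15.7 RPKM with DMSO and 12.9 with RVX-208 and is listed at 0 in all 4 OTX-015 and BBC1115 libraries, and an exact 0 in such a table can be a failed estimate.

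The D-type cyclin transcripts differed between groups more in their make-up than in their sum. The summed level was 162 and 159 RPKM with DMSO, 160.0 and 161 with RVX-208, 169.8 and 148 with OTX-015 and 143 and 134 with BBC1115. OTX-015 spanned the DMSO values and BBC1115 lay below them. The Ccnd1 share of that sum was 22.1% and 24.3% with DMSO, 19.7% and 19.4% with RVX-208, 2.94% and 3.20% with OTX-015 and 2.82% and 3.16% with BBC1115. Ccnd3 made up 59.7% to 65.3% with DMSO, 80.7% to 82.4% with OTX-015 and 75.9% to 80.2% with BBC1115. Shares within a library do not change with a common factor for all its genes, whereas quantile normalization can change them. They were computed on RPKM as deposited and are given as a description with no test.

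Both kinase transcripts fell in OTX-015 and fell further in BBC1115, Cdk6 by far more than Cdk4. Cdk6 (chromosome 5, 3341485 to 3531008, plus strand) stood at 66.5 and 86.9 RPKM with DMSO, 82.9 and 84.6 with RVX-208, 19.6 and 18.1 with OTX-015 and 4.39 and 5.05 with BBC1115. The groups formed 3 separate levels, with DMSO and RVX-208 overlapping at the top. Against DMSO the mean was 4.07-fold lower in OTX-015 (log2 fold change -1.96, SE 0.12, adjusted p = 2.29e-07) and 16.2-fold lower in BBC1115 (log2 fold change -3.75, SE 0.12, adjusted p = 6.97e-10). BBC1115 was 3.99-fold below OTX-015 (log2 fold change -1.79, 95% interval -2.06 to -1.53, adjusted p = 2.36e-06), the largest difference between these compounds among the 10 genes. In RVX-208 the log2 fold change was 0.14 (95% interval -0.13 to 0.40, adjusted p = 0.542).

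Cdk4 (chromosome 10, 127063534 to 127067920, plus strand), the most abundant of the 10 transcripts in DMSO and RVX-208, stood at 317 and 284 RPKM with DMSO, 256 and 258 with RVX-208, 161 and 137 with OTX-015 and 113 and 103 with BBC1115. The 4 groups did not overlap. The mean was 2.02-fold lower in OTX-015 (log2 fold change -1.01, SE 0.103, adjusted p = 9.48e-06) and 2.78-fold lower in BBC1115 (log2 fold change -1.47, SE 0.103, adjusted p = 2.13e-07). BBC1115 was 1.38-fold below OTX-015 (log2 fold change -0.46, 95% interval -0.68 to -0.23, adjusted p = 0.00476). RVX-208 was 1.17-fold below DMSO and was not called (log2 fold change -0.22, 95% interval -0.45 to 0.01, adjusted p = 0.284). Cdk4, whose promoter carries the 4 E-boxes printed above, shares 641 exon nucleotides, 19.7% of its exons, with Tspan31 on the opposite strand. Tspan31 rose where Cdk4 fell, from a mean of 45.8 RPKM with DMSO to 91.0 with OTX-015 and 100.7 with BBC1115.

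The summed kinase level was 384 and 371 RPKM with DMSO, 339 and 343 with RVX-208, 181 and 155 with OTX-015 and 118 and 108 with BBC1115. With Cdk6 falling more, the balance of the pair shifted towards Cdk4. The ratio of Cdk4 to Cdk6 was 4.78 and 3.27 with DMSO, 3.09 and 3.06 with RVX-208, 8.22 and 7.56 with OTX-015 and 25.8 and 20.3 with BBC1115. OTX-015 and BBC1115 lay above DMSO and apart from each other.

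Of the CIP and KIP inhibitors, Cdkn1a rose in a graded way and Cdkn1b rose to overlapping levels in both groups. Cdkn1a (chromosome 17, 29090976 to 29100727, plus strand), a well known target of p53 that halts the cycle, stood at 66.2 and 66.7 RPKM with DMSO, 72.1 and 68.5 with RVX-208, 145 and 130.2 with OTX-015 and 255 and 247 with BBC1115. No group overlapped another, and DMSO and RVX-208 lay close together. The mean was 2.07-fold higher in OTX-015 (log2 fold change 1.04, SE 0.0834, adjusted p = 1.65e-06) and 3.78-fold higher in BBC1115 (log2 fold change 1.9, SE 0.0834, adjusted p = 6.46e-09). BBC1115 exceeded OTX-015 by 1.83-fold (log2 fold change 0.87, 95% interval 0.68 to 1.05, adjusted p = 2.28e-05), and Cdkn1a was the only 1 of the 10 genes called higher in BBC1115 than in OTX-015. RVX-208 was not called (log2 fold change 0.08, 95% interval -0.10 to 0.26, adjusted p = 0.613).

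Cdkn1b (chromosome 6, 134920401 to 134925513, plus strand), the gene of the KIP inhibitor that restrains cyclin E and CDK2, was among the least abundant of the 10 with DMSO. It stood at 11.5 and 10.6 RPKM with DMSO, 11.4 and 11.9 with RVX-208, 19.9 and 16.9 with OTX-015 and 17.5 and 16.8 with BBC1115. The treated groups OTX-015 and BBC1115 lay above DMSO and overlapped each other. The rise was 1.66-fold in OTX-015 (log2 fold change 0.68, SE 0.101, adjusted p = 0.000142) and 1.56-fold in BBC1115 (log2 fold change 0.59, SE 0.101, adjusted p = 0.000238). The difference between them was not called (log2 fold change -0.09, 95% interval -0.31 to 0.13, adjusted p = 0.505).

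The INK4 inhibitors did not move together. Cdkn2d (chromosome 9, 21288410 to 21291407, minus strand) stood at 33.7 and 28.1 RPKM with DMSO, 35.9 and 32.1 with RVX-208, 53.6 and 46.9 with OTX-015 and 49.7 and 44.4 with BBC1115. Both OTX-015 and BBC1115 were above DMSO without overlap, and RVX-208 overlapped DMSO. The rise was 1.63-fold in OTX-015 (log2 fold change 0.69, SE 0.111, adjusted p = 0.00028) and 1.52-fold in BBC1115 (log2 fold change 0.59, SE 0.111, adjusted p = 0.000509), and the compounds were not called different (log2 fold change -0.09, 95% interval -0.34 to 0.15, adjusted p = 0.525). Cdkn2c (chromosome 4, 109660876 to 109667189, minus strand) stood at 20.0 and 19.8 RPKM with DMSO, 21.3 and 21.5 with RVX-208, 24.5 and 21.5 with OTX-015 and 16.9 and 15.8 with BBC1115. BBC1115 lay below every other library and OTX-015 above DMSO. BBC1115 was 1.41-fold below OTX-015 (log2 fold change -0.47, 95% interval -0.66 to -0.27, adjusted p = 0.00188). Against DMSO the fall in BBC1115 was 1.22-fold (log2 fold change -0.27, SE 0.0896, adjusted p = 0.0175). It was not called with upper-quartile scaling (adjusted p = 0.712), with quantile normalization (0.934), without DMSO replicate 1 (0.0529) or without BBC1115 replicate 2 (0.109). OTX-015 was not called (log2 fold change 0.20, adjusted p = 0.0745) and became so in 4 of 17 alternatives, with an adjusted p of 0.000665 to 0.0265.

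Rb1 (chromosome 14, 73183673 to 73325822, minus strand), the gene of the retinoblastoma protein that the kinases phosphorylate, differed little between groups. It stood at 11.2 and 11.7 RPKM with DMSO, 13.9 and 13.1 with RVX-208, 15.6 and 12.7 with OTX-015 and 9.999 and 11.2 with BBC1115. RVX-208 and OTX-015 lay above DMSO, and BBC1115 overlapped it. OTX-015 was 1.23-fold higher at the edge of the threshold (log2 fold change 0.28, SE 0.111, adjusted p = 0.0483), a call that 11 of 17 alternatives did not give (adjusted p = 0.0503 to 0.311). In BBC1115 the log2 fold change was -0.10 (95% interval -0.34 to 0.14, adjusted p = 0.428), and it turned positive, at 0.14 and 0.15, with upper-quartile scaling and quantile normalization. BBC1115 was 1.33-fold below OTX-015 (adjusted p = 0.0186), but not without OTX-015 replicate 1 (0.136) or without BBC1115 replicate 1 (0.123). All 10 genes read higher in OTX-015 replicate 1 than in OTX-015 replicate 2, whose RPKM totals were 409918 and 375973. Rb1 shares 488 and 408 exon nucleotides, 8.11% and 6.78% of its exons, with Rcbtb2 and Lpar6 on the opposite strand.

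Set side by side, the balance of Cdk4 and Cdk6 transcripts against those of the 4 member inhibitors reversed. Cdkn2a and Cdkn2b, INK4 genes read in a list below, are not in the inhibitor sum. The 4 inhibitors summed to 131 and 125 RPKM with DMSO, 141 and 134 with RVX-208, 243 and 215 with OTX-015 and 339 and 324 with BBC1115. The ratio of the summed kinases to the summed inhibitors was 2.92 and 2.96 with DMSO and 2.41 and 2.56 with RVX-208. It was 0.744 and 0.718 with OTX-015 and 0.347 and 0.332 with BBC1115. The 4 groups did not overlap in this ratio, which like the shares carries no test. A common factor for all genes of a library leaves it unchanged, whereas quantile normalization can change it. With 2 libraries in each group, non-overlap by itself is weak, and its share over all genes was not computed. Cdkn1a made up 50.4% and 53.3% of the inhibitor sum with DMSO, 59.6% and 60.4% with OTX-015 and 75.2% and 76.2% with BBC1115.

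**Figure D3:**
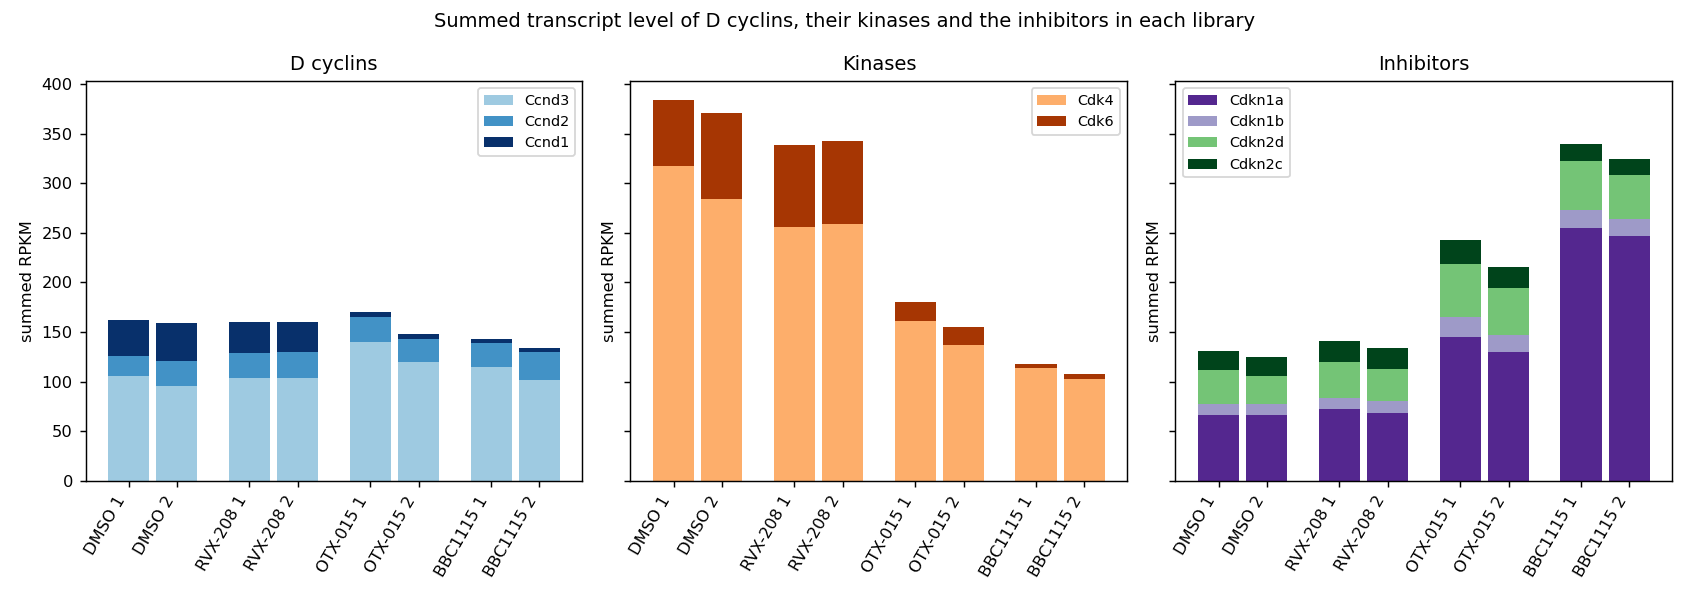
Summed RPKM (y axis, linear from 0) of the D-type cyclins, the kinases and the inhibitors in each of the 8 libraries (x axis), with colours for the genes. The kinase sum falls from 371 or more in DMSO to 118 or less in BBC1115, while the inhibitor sum rises from 131 or less to 324 or more.

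Between compounds, BBC1115 against OTX-015 called 1 of the 10 genes higher and 4 lower (14.2% and 29.7% of all genes). Of all called genes 32.3% were higher, a share that became 17.1% when rescaled to TPM, 43.6% with upper-quartile scaling and 49.2% with quantile normalization. The lower ones were Cdk6, Cdk4, Cdkn2c and Rb1. Rescaling to TPM also called Ccnd1 (adjusted p = 0.0236), Ccnd3 (0.000443), Cdkn1b (0.0392) and Cdkn2d (0.0292) lower in BBC1115 than in OTX-015. RVX-208 against OTX-015 called 3 higher (Ccnd1, Cdk4 and Cdk6) and 4 lower (Ccnd3, Cdkn1a, Cdkn1b and Cdkn2d), where 38.1% and 17.6% of all genes were called (68.5% of the calls higher, 47.6% with quantile normalization). For Ccnd3 that call was lost without RVX-208 replicate 1 (adjusted p = 0.092), RVX-208 replicate 2 (0.0875) or OTX-015 replicate 1 (0.143). BBC1115 against RVX-208 called 3 higher (Cdkn1a, Cdkn1b and Cdkn2d) and 5 lower (Ccnd1, Cdk4, Cdk6, Cdkn2c and Rb1), where 23.9% and 49.6% of all genes were called (32.5% of the calls higher, 45.8% with upper-quartile scaling). The largest of these was Cdk6, 17.7-fold lower in BBC1115 than in RVX-208 (log2 fold change -3.89, 95% interval -4.15 to -3.63, adjusted p = 8.7e-10). Cdkn1a was 3.57-fold higher (log2 fold change 1.82, 95% interval 1.64 to 2.01, adjusted p = 1.11e-08). The Cdkn2c call in this comparison was lost with quantile normalization (log2 fold change -0.09, adjusted p = 0.2). The Rb1 call was lost in 5 of 17 alternatives, with an adjusted p of 0.0504 to 0.788.

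The surrounding pathway was read in 64 further genes in 4 lists, all of which passed the filter. The counts below stand against 24.2% of all genes higher and 40.0% lower in OTX-015, and 26.4% higher and 49.3% lower in BBC1115. Cyclin E, CDK2 and their switches act just after the D-type cyclins. The list for this step also held Cdkn2a and Cdkn2b, INK4 genes whose products bind CDK4 and CDK6. Of its 11 genes, 2 rose and 9 fell in both OTX-015 and BBC1115 (median log2 fold change -0.53 and -0.57). The genes that rose in BBC1115 were the inhibitors Cdkn2b, from 1.02 RPKM with DMSO to 3.38 with OTX-015 and 6.63 with BBC1115, and Cdkn1c. Cdkn1c averaged 0.383 RPKM with DMSO, 0.771 with OTX-015 and 1.77 with BBC1115. It passed the filter only through BBC1115, the group where it was high, so its call carries no weight. The counts and medians of this list still include it. Cdkn2a, an inhibitor named here after its value was seen, fell from 18.4 RPKM to 11.5 with OTX-015 (adjusted p = 0.000464) and 14.2 with BBC1115 (adjusted p = 0.0117). Cdk7 and Ccnh, partners in the kinase that activates CDKs, fell from 7.80 to 4.01 and 3.35 RPKM and from 25.0 to 13.8 and 10.4 RPKM. Cdc25a, a phosphatase that activates CDK2, fell from 28.7 to 16.7 RPKM with OTX-015 and 16.2 with BBC1115. Among the pocket proteins, E2F and DP factors and the DREAM complex, 3 of 18 rose and 11 fell in OTX-015 and 1 rose and 13 fell in BBC1115 (medians -0.32 and -0.65). With upper-quartile scaling 5 of these fell in OTX-015, where the median was -0.15. Tfdp1, the dimer partner of E2F factors, fell from 158 RPKM with DMSO to 80.4 with OTX-015 and 64.4 with BBC1115, and Mybl2 from 28.7 to 12.6 and 11.3. E2f4 and E2f6, mainly repressive members of the E2F family, fell from 48.6 to 27.99 and 21.2 RPKM and from 23.7 to 11.4 and 6.94 RPKM.

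Of 17 genes for turnover and partners of G1 regulators, 7 rose and 5 fell in OTX-015 and 8 rose and 6 fell in BBC1115 (medians -0.08 and 0.20). With upper-quartile scaling the OTX-015 median turned positive, at 0.10, and that of BBC1115 was 0.46. The BBC1115 median was 0.06 without DMSO replicate 1 and 0.12 without BBC1115 replicate 2. Sertad1, which encodes a CDK4-binding protein, rose from 9.47 RPKM with DMSO to 59.5 with OTX-015 and 120.5 with BBC1115 (12.7-fold, adjusted p = 9.85e-10). Sertad2 rose from 4.49 to 9.75 and 17.8 RPKM, and the atypical cyclin Ccng2 from 10.4 to 29.7 and 34.7. Dmtf1, a cyclin D-binding transcription factor, rose from 13.8 RPKM with DMSO to 22.8 with OTX-015 and 29.0 with BBC1115. Cables1 averaged 1.18 RPKM with DMSO and 0.206 with OTX-015 and passed the filter only through DMSO, where it was high, so its call carries no weight. It is still included among the genes counted as falling and in the medians of the turnover list. Of 18 E2F target genes of S phase, 15 fell and 0 rose in OTX-015 and 14 fell and 1 rose in BBC1115 (medians -0.55 and -0.84), against an all-gene median of -0.13 and -0.25. In OTX-015, 13 fell and 2 rose with upper-quartile scaling or rescaled to TPM, and 11 fell and 2 rose with quantile normalization. Tk1, thymidine kinase, fell from 67.0 RPKM with DMSO to 24.4 with OTX-015 and 8.47 with BBC1115, and the helicase gene Mcm6 from 171 to 87.5 and 62.9. Mcm2 fell from 89.8 to 47.8 and 29.5 RPKM, Cdt1 from 35.4 to 16.3 RPKM with OTX-015, and Mcm3 from 105 to 40.8 with BBC1115. Cdt1 and Mcm3 are each given for the compound where they ranked among the 4 largest called changes of the list. The gene that rose in BBC1115 was Pcna, named after its value was seen, at 374 RPKM with DMSO and 501 with BBC1115 (log2 fold change 0.42, adjusted p = 0.00256). In RVX-208 limma called 0 of these 64 genes, and 2 of 11, 3 of 18, 7 of 17 and 1 of 18 of the lists in the order above had an unadjusted p under 0.05, against 18.2% of all genes. Cdkn2b came closest, at 2.13 RPKM, 2.09-fold above DMSO (unadjusted p = 0.000439 and adjusted p = 0.0953 by limma). Without DMSO replicate 1, 1 gene of the cyclin E list was called higher, and without DMSO replicate 2, 1 gene of that list was called higher and 1 of the turnover list lower. No gene of these lists lost its call or direction, in the compound it was named for by its rank, under any of the 17 alternatives that kept the gene. These genes were picked as the largest called changes in the same data, so this gives no independent support. They include Cdkn1c and Cables1, whose calls carry no weight.

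**Figure D4:**
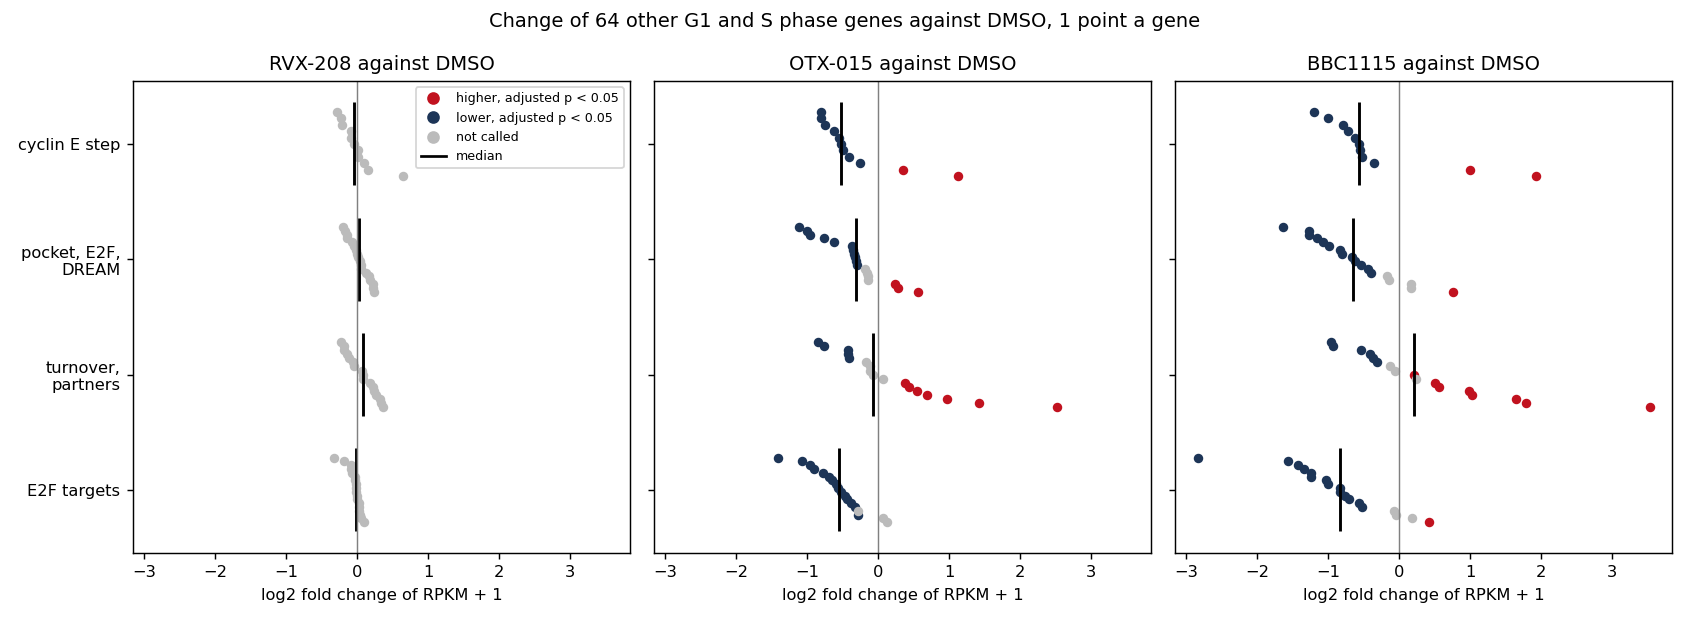
Log2 fold change of RPKM + 1 against DMSO (x axes) for the 64 genes in the 4 lists (y axis), with points coloured by call and a black line at each list's median. Most E2F targets lie below 0 with OTX-015 and BBC1115, and the points of RVX-208 gather around 0.

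The genes with the most similar course to a member over the 8 libraries were found by the root mean square difference of log2(RPKM + 1) profiles centred on DMSO, among 8239 genes. Closest to Cdk6 were Atp8b4 (0.0929), Emilin1 (0.124) and Cd93 (0.21). Atp8b4 averaged 97.7 RPKM with DMSO, 103 with RVX-208, 23.99 with OTX-015 and 7.18 with BBC1115. Closest to Cdkn1a were P4ha1 (0.0446), Phtf2 (0.052) and Ddit4 (0.0616). P4ha1 averaged 12.2 RPKM with DMSO, 12.6 with RVX-208, 27.4 with OTX-015 and 47.3 with BBC1115. Closest to Ccnd2, the cyclin that was not called, were Ncapg2 (0.0391), Ubap2l (0.0462) and Srebf2 (0.0523), a likeness that any gene with little change would have.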

How the data were processed

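RNA was extracted with Qiazol and sequenced after directional mRNA library preparation (NEXTflex Rapid Directional), per the labels' protocols. The authors deposited 1 table of RPKM per gene and library. STAR, Cufflinks and mm10 are named in the submitters' processing notes. The sources used here do not give versions, annotation or strand setting. All 8 columns were used.

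Genes that reached 1 RPKM in 2 or more libraries were tested on log2(RPKM + 1) with limma 3.58.1 in R 4.3.3 (1 mean per group, 8 libraries, variance trend, two-sided, 4 residual and 6.81 prior degrees of freedom), with Benjamini-Hochberg adjustment over 9975 genes in each of 6 comparisons and a threshold of 0.05. The script was tested on simulated data. The pseudocount of 1 shrinks log2 fold changes of low genes, and quoted folds are ratios of mean RPKM. Reads per library were estimated from RPKM under 0.15 in genes over 2500 exon nucleotides. Gene positions and overlaps come from GENCODE (GRCm38), and promoters from RefSeq.

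The 10 genes and all lists were chosen with earlier results of these data known. From each other list, up to 4 called genes with the largest change per compound are named, and for Cdk6, Cdkn1a and Ccnd2 the 3 closest patterns. Alternatives were other pseudocounts, filters, scalings and variance models, a replicate block, fits to 2 groups and leaving out each library.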

Additional observations from a re-analysis of the deposited data

How the results depend on the processing

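Each of 60 values (10 genes in 6 comparisons) was recomputed under 17 alternatives. Of 1020 values, 951 kept direction and side of the threshold, 27 lost a call, 24 gained 1 and 18 changed sign. None of the sign changes involved a call. Against DMSO, the OTX-015 and BBC1115 calls of Ccnd1, Cdk4, Cdk6, Cdkn1a, Cdkn1b and Cdkn2d held under all 17, and no gene was called in RVX-208 under any.

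Members higher in OTX-015 than in DMSO numbered 5, and 3 to 6 with 1 library left out (3 without OTX-015 replicate 1). Members higher in BBC1115 than in DMSO went from 3 to 5 with upper-quartile scaling and with quantile normalization. Members lower in BBC1115 than in OTX-015 went from 4 to 8 when rescaled to TPM, which took the share of higher calls among all genes from 32.3% to 17.1%. Quantile normalization made 5 members higher and 3 lower in BBC1115 than in RVX-208, against 3 and 5. In RVX-208 against DMSO, 17 genes were called in all, 7 with no filter, 9 with upper-quartile scaling, 7 with only the 2 groups, 33 with the replicate block and 6 to 985 with 1 library left out (985 without DMSO replicate 2, the cause was not tested). In OTX-015 against DMSO, 2418 genes were higher and 3992 lower as deposited, 3561 and 3066 with upper-quartile scaling, 3366 and 2963 when rescaled to TPM and 3641 and 3192 with quantile normalization. In BBC1115 against DMSO the split was 2629 and 4915 as deposited, 3743 and 3960 with upper-quartile scaling and 3889 and 3844 with quantile normalization. Rescaled to TPM, that split was 2763 and 4747, so most calls stayed lower.

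The log2 fold changes that crossed 0 were uncalled. With quantile normalization, Ccnd1 stood at 0.045 and Cdkn1b at 0.01 in BBC1115 against OTX-015, Ccnd2 at -0.116 in RVX-208 against OTX-015 and Rb1 at 0.151 in BBC1115 against DMSO. With upper-quartile scaling, Ccnd2 stood at -0.091 in RVX-208 against OTX-015 and Rb1 at 0.137 in BBC1115 against DMSO. When rescaled to TPM, Ccnd2 stood at -0.051 in BBC1115 against OTX-015, -0.032 in RVX-208 against OTX-015 and -0.019 in BBC1115 against RVX-208. With 1 library left out, Ccnd2 ran from -0.061 to 0.251 in OTX-015 against DMSO, from -0.003 to 0.201 in BBC1115 against OTX-015 and from -0.064 to 0.14 in BBC1115 against RVX-208. Ccnd3 ran from -0.032 to 0.12 in RVX-208 against DMSO and from -0.021 to 0.149 in BBC1115 against RVX-208, and Cdk6 from -0.053 to 0.328 in RVX-208 against DMSO. In BBC1115 against OTX-015 Cdkn1b ran from -0.203 to 0.026 and Cdkn2d from -0.188 to 0.001, and Rb1 from -0.193 to 0.085 in RVX-208 against OTX-015.

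Replicate numbers are shared across groups, but the labels tie them to no batch. The correlation of replicate differences was 0.524 for DMSO and BBC1115 and -0.0845 to 0.0551 for the other 5 pairs of groups. The main fit treated the samples as sharing only a number. What the value for DMSO and BBC1115 reflects was not tested, and the replicate block, a common term for all groups, does not model a structure limited to that pair. With 2 libraries a group, 1 line, estimated depth and no dose or time, small changes are not resolved. Leaving out a library leaves 1 in its group, assumed to vary like the others.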
